A study of Mus musculus with 10 samples.

Results

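The AP-1 family was followed through 10 of its genes in RNA-seq of mouse splenic plasma cells that carried a reporter mark for germinal centre B cells. The genes were taken by name, as the rows whose Ensembl identifier maps to Fos, Fosb, Fosl2, Jun, Junb, Jund, Batf, Atf3, Maff or Mafk in the GENCODE M21 annotation of build GRCm38. All 10 were found among the 47719 genes listed. The 2 groups compared were sorted IgM plasma cells and sorted IgG1 plasma cells, with 5 libraries each. In both groups the cells descended from transferred S1PR2-CreERT2 Ai14 B1-8germ B cells in wild-type recipients. S1PR2-CreERT2 is a tamoxifen-dependent Cre recombinase active in germinal centre B cells, Ai14 is a reporter that makes tdTomato once Cre has acted, and B1-8germ is a heavy chain that recognises the hapten NP. Day 0 was the NP-CGG immunization, with alum as adjuvant, for recipients of both groups. Tamoxifen followed at days 5 and 6, and on day 10 the tdTomato+ donor cells were sorted from spleens. The labels give no age for the animals and do not say whether each library had its own animal, so p-values cover the spread between these libraries, which may be technical.

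AP-1 is a dimer of basic leucine zipper proteins. FOS proteins cannot pair with themselves and bind DNA only with a partner such as a JUN protein, whereas JUN proteins can also pair with each other. Many members are immediate early genes, whose transcripts appear within minutes of a stimulus and are short-lived, and BATF, ATF3 and the small MAF proteins use the same zipper to pair with JUN, with IRF factors through DNA, or with NRF and BACH proteins. In B cells, antigen receptor and CD40 signals raise FOS and JUN genes, and Blimp-1, encoded by Prdm1, takes over the programme as plasma cells form.

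Values are FPKM, the authors' fragments per kilobase of transcript on a scale of fragments per library, which allow levels of different genes to be set side by side. Summed FPKM ran from 1333416.8 to 1934268.2 and the immunoglobulin share, with Jchain counted in it, from 64.0% to 75.6%. Totals without immunoglobulin genes, which still hold Jchain, stayed at 0.9705 to 1.045 of their mean. Whether the values were scaled across libraries was not tested. The estimated depth, read off the value that a single fragment gives, was 26110000 to 37730000 fragments per library. It is a depth on the scale of these values and need not be the number of mapped fragments. Genes listed above 0 numbered 15121 to 15800 in IgM and 13286 to 13961 in IgG1 libraries. Plasma cell markers were high in both groups, with mean Jchain levels of 38835 FPKM (IgM) and 21143 FPKM (IgG1). The summed level of the 8 mature B cell markers was 117 to 139 FPKM in IgM and 77.7 to 95.8 FPKM in IgG1 libraries, with Pax5 and Ciita below 1 FPKM in every library. The 6 germinal centre markers summed to 22.9 to 28.4 FPKM in IgM and 10.9 to 17.7 FPKM in IgG1 libraries. The 8 macrophage and monocyte markers summed to 32.6 to 39.9 FPKM in IgM and 15.1 to 23.2 FPKM in IgG1 libraries. Cd68 made up most of that sum, while Adgre1 and Cd14 stayed below 1 FPKM in every library. T cell, NK cell, neutrophil, dendritic, erythroid, platelet and stromal markers summed to at most 7.77 FPKM in any library. The plasma cell, mature B cell, germinal centre and macrophage sums differed between the groups without overlap, while the other sums overlapped. The part of the 4 separated lists in the AP-1 differences was not tested. In bulk RNA, fewer cells that use a gene and less of its RNA per cell cannot be told apart.

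Of the 10 members, 6 had a mean of at least 1 FPKM and entered the test across 9900 genes, while 4 lay below that level. Fos, Jun and Junb were lower in IgG1 cells, and Jund, Batf and Mafk did not pass (limma on log2 of FPKM plus 1, Benjamini-Hochberg adjusted p under 0.05 over all tested genes). Thus 3 of 6 tested members were lower and 0 higher, where 20.2% of all tested genes were lower and 18.1% higher. The median difference of the 6, IgG1 minus IgM, was -0.70 on the log2 scale, beside -0.05 over all tested genes. In 2 of the 6, Fos and Jun, every IgG1 value lay below every IgM value, which held for 13.3% of tested genes.

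**Figure D1:**
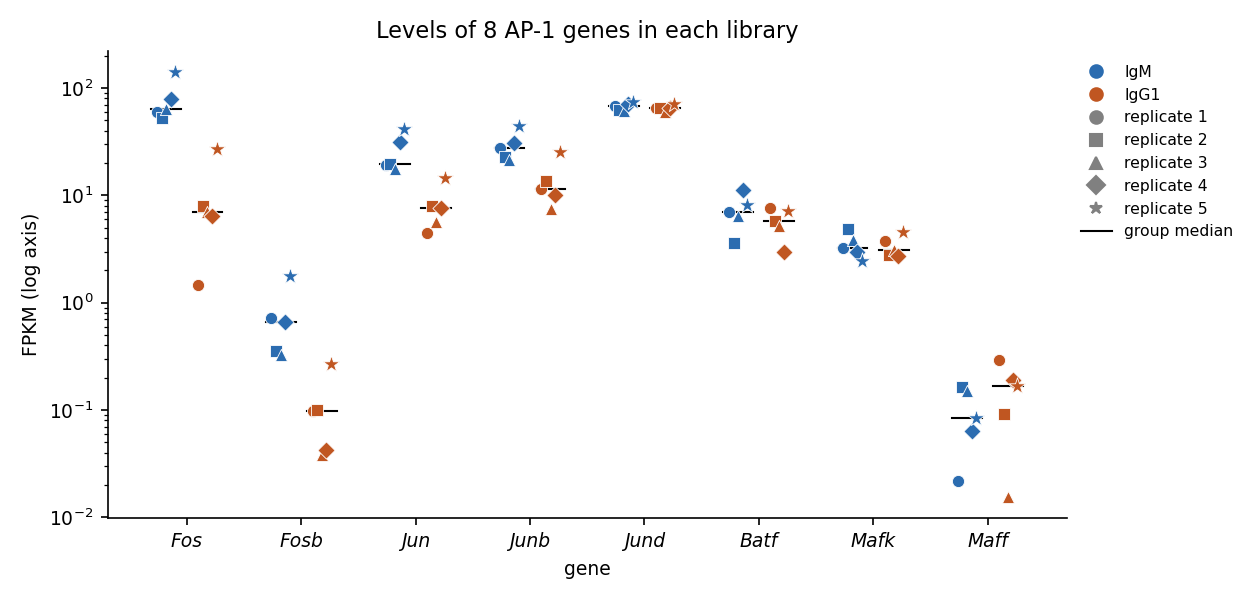
FPKM of 8 AP-1 genes (log axis) in the 5 IgM and the 5 IgG1 libraries, with 1 point per library, a symbol for each replicate number and a line at the group median. Fos, Fosb and Jun do not overlap between the groups, whereas the Jund points of both groups sit together between 59.3 and 74.1 FPKM, and Fosl2 and Atf3 are left out because they hold values of 0.

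Fos, the founding FOS gene and the one with the largest difference among the tested members, is on chromosome 12 (85473890 to 85477273, plus strand) and its longest annotated form spans 4 exons. Its level was 59.4, 52.7, 63.6, 79.0 and 141 FPKM in IgM replicates 1 to 5, and 1.45, 7.98, 6.94, 6.42 and 27.0 FPKM in IgG1 replicates 1 to 5. The groups did not overlap, and even IgG1 replicate 5, far above its group, lay under IgM replicate 2, the lowest of the IgM libraries. Means were 79.2 ± 36.0 and 9.97 ± 9.87 FPKM (SD, n = 5 each), a ratio of 7.95. Without IgG1 replicate 5 the IgG1 mean was 5.70 FPKM and the ratio 13.9. The log2 difference was -3.20 (SE 0.61, limma adjusted p = 0.00344), and 45 of the 9900 tested genes, Fos included, were at least as low. By level Fos ranked 1141 among tested genes in IgM and 5034 in IgG1 libraries. The highest library was 18.6 times the lowest in IgG1 cells and 2.68 times in IgM cells. Single libraries set these ranges, since the IgG1 one came to 4.21 times without replicate 1 and 5.50 times without replicate 5. The IgM one narrowed too without replicate 5, next to which the highest library was replicate 4 at 79.0 FPKM.

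Jun encodes c-Jun, the most studied partner of FOS, from a single exon on chromosome 4 (95049034 to 95052222, minus strand). It stood at 19.1, 19.5, 17.8, 31.5 and 41.7 FPKM in IgM replicates 1 to 5 and at 4.48, 7.97, 5.67, 7.56 and 14.7 FPKM in IgG1 replicates 1 to 5. Again no IgG1 library reached the lowest IgM library, and replicate 5 was the highest of each group. Means were 25.9 ± 10.4 and 8.07 ± 3.95 FPKM (SD, n = 5 each), a ratio of 3.21, with a log2 difference of -1.59 (SE 0.31, limma adjusted p = 0.00206).

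Junb, a JUN gene known as a weaker activator than c-Jun in many settings, is on chromosome 8 (84974484 to 84978718, minus strand). It was measured at 27.4, 22.8, 21.5, 30.5 and 44.8 FPKM in IgM replicates 1 to 5 and at 11.4, 13.6, 7.52, 10.2 and 25.2 FPKM in IgG1 replicates 1 to 5. Here the groups overlapped, since IgG1 replicate 5 lay above IgM replicates 2 and 3. Means were 29.4 ± 9.32 and 13.6 ± 6.88 FPKM (SD, n = 5 each), a ratio of 2.16, and the log2 difference was -1.12 (SE 0.30, limma adjusted p = 0.0136). Junb shares 7.52% of its exonic bases with Prdx2 on the opposite strand, a peroxiredoxin gene that was higher in IgG1 cells (log2 difference 0.52, limma adjusted p = 8.13e-05). The library kit, as background, does not keep strand, so reads of the shared stretch cannot be assigned.

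Jund, the JUN gene usually described as steadily expressed in resting cells, did not follow Jun and Junb. This single-exon gene (chromosome 8, 70698949 to 70700616, plus strand) stood at 68.5, 62.7, 61.2, 70.6 and 74.1 FPKM in IgM replicates 1 to 5 and at 65.0, 65.8, 59.3, 64.7 and 71.0 FPKM in IgG1 replicates 1 to 5. The groups overlapped almost fully, with means of 67.5 ± 5.42 and 65.2 ± 4.18 FPKM (SD, n = 5 each). The log2 difference was -0.05 (SE 0.08, limma adjusted p = 0.653), and with trends of transcript length and GC content removed it came to -0.36 and passed (adjusted p = 0.0129). An antisense gene model, Gm11175, covers 52.6% of the exonic bases of Jund and averaged 36.0 FPKM in IgM and 37.9 FPKM in IgG1 libraries, so part of either level may belong to the other.

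Batf encodes a zipper protein that lacks an activation domain and binds DNA with a JUN protein, often beside IRF4 or IRF8. From chromosome 12 (85686669 to 85709087, plus strand), it was at 7.05, 3.58, 6.36, 11.2 and 8.14 FPKM in IgM replicates 1 to 5 and at 7.65, 5.81, 5.16, 2.97 and 7.21 FPKM in IgG1 replicates 1 to 5. The ranges overlapped, and the log2 difference was -0.27 (SE 0.25, limma adjusted p = 0.422). It came to -0.47 without IgM replicate 2, -0.11 without IgM replicate 4 and -0.09 without IgG1 replicate 4, and did not pass in any of these. Mafk, a small MAF protein that pairs with NRF2 or BACH factors, was at 3.26, 4.87, 3.82, 2.98 and 2.45 FPKM in IgM replicates 1 to 5 and at 3.73, 2.77, 3.12, 2.74 and 4.53 FPKM in IgG1 replicates 1 to 5. Its log2 difference was -0.03 (SE 0.20, limma adjusted p = 0.938).

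The other 4 members were low. Fosb, a FOS gene with a known truncated form that persists after repeated stimulation, was at 0.728, 0.358, 0.324, 0.657 and 1.77 FPKM in IgM replicates 1 to 5. In IgG1 replicates 1 to 5 it was at 0.0987, 0.101, 0.0383, 0.0429 and 0.269 FPKM, below every IgM library. At these depths the IgG1 values stand for about 5 to 30 fragments per library. The means of 0.767 ± 0.588 and 0.110 ± 0.0938 FPKM (SD, n = 5 each) gave a two-sided exact permutation p of 0.00794, unadjusted and the smallest that 5 against 5 libraries can give. The difference in means was -0.657 FPKM, or -0.407 FPKM without IgM replicate 5. The exact permutation p rose to at most 0.0317 with single libraries left out, and without IgG1 replicate 5 the IgG1 mean was 0.0703 FPKM. With no filter on low values, Fosb did not pass in the fit across genes (log2 difference -0.62, limma adjusted p = 0.0936). Maff, the other small MAF gene, ranged from 0.0220 to 0.165 FPKM in IgM and from 0.0156 to 0.290 FPKM in IgG1 libraries (two-sided exact permutation p = 0.333). Fosl2, which encodes FRA-2, was listed above 0 in 3 IgM and 2 IgG1 libraries, at most at 0.249 FPKM in IgG1 replicate 3 (exact permutation p = 0.960). Atf3, a stress-induced family member, was listed at 0 in all but 1 library, IgG1 replicate 3, at 0.141 FPKM. For Atf3, 3 fragments would amount to 0.0445 to 0.0644 FPKM, the level that a value of 0 still allows, for counting error alone. Fosl2 and Atf3 were thus both highest in the same library.

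**Figure D2:**
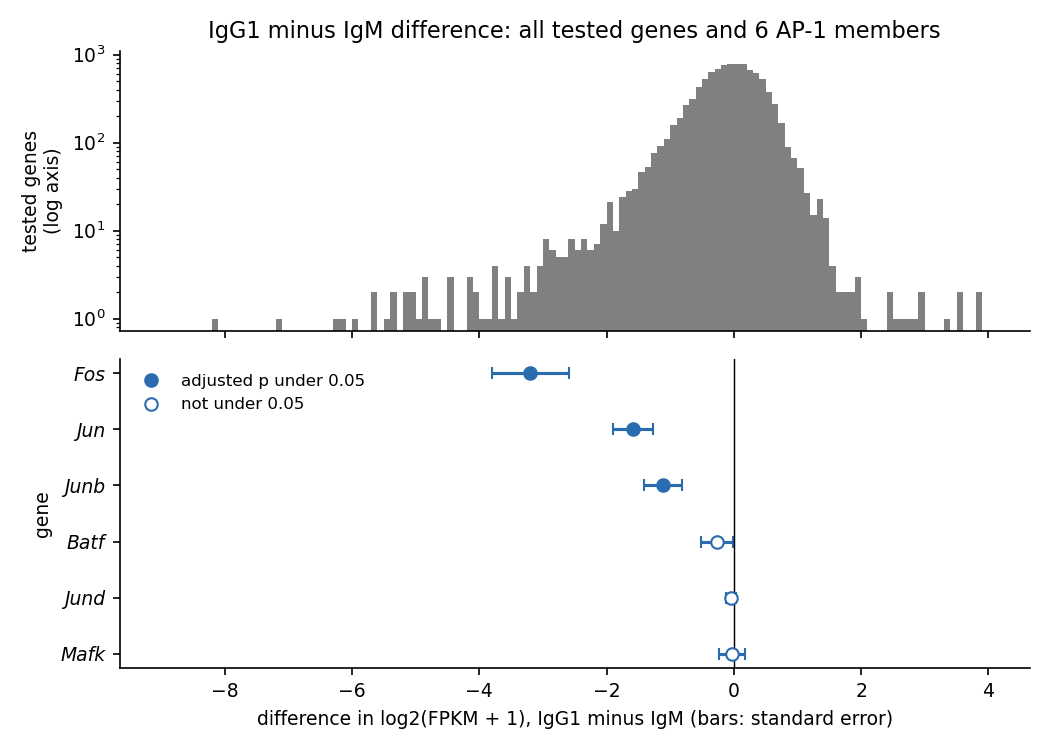
Top, the number of tested genes (log axis) in each bin of the difference in log2 of FPKM plus 1, IgG1 minus IgM; bottom, the same difference for the 6 tested AP-1 members, with bars of 1 standard error and filled points for an adjusted p under 0.05. Fos at -3.20, Jun at -1.59 and Junb at -1.12 sit in the left flank of the distribution, while Jund and Mafk lie at its centre.

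The order of levels differed between the groups. In IgM cells the highest means were Fos at 79.2 and Jund at 67.5 FPKM, followed by Junb at 29.4 and Jun at 25.9 FPKM, then Batf at 7.26 and Mafk at 3.48 FPKM. Fos and Jund overlapped in their IgM ranges, as did Junb and Jun, and Batf and Mafk. In IgG1 cells Jund, at 65.2 FPKM, stood above every other member in every library, and Junb at 13.6, Fos at 9.97, Jun at 8.07 and Batf at 5.76 FPKM followed with overlapping ranges. Mafk came next at 3.38 FPKM, and its range overlapped those of Batf, Jun and Fos. The share of Fos in the summed FPKM of the 10 members was 36.0% ± 5.39 in IgM and 8.37% ± 5.97 in IgG1 cells (SD, n = 5 each), without overlap. Jund made up 23.6% to 37.6% in IgM and 47.3% to 69.1% in IgG1 libraries. Among the JUN genes alone, the Jund share was 46.1% to 60.9% in IgM and 64.0% to 81.8% in IgG1 libraries. The Jund share therefore did not overlap between the groups although its own level did.

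**Figure D3:**
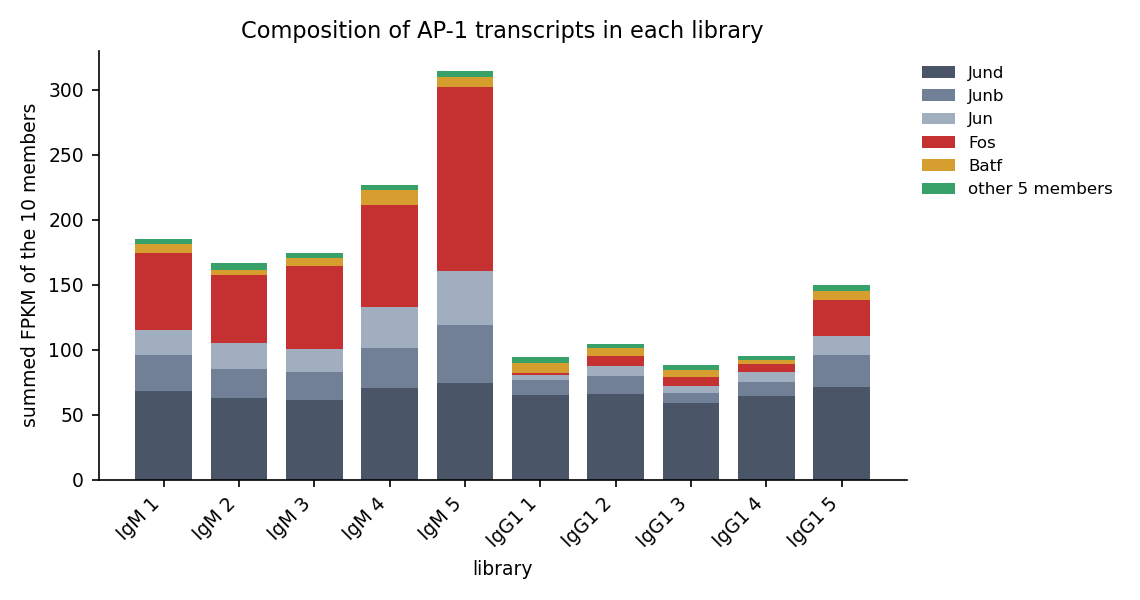
Summed FPKM of the 10 members in each of the 10 libraries, stacked by gene. The Jund layer keeps nearly the same height in all libraries, and the Fos layer accounts for most of the extra height of the IgM bars, with IgM replicate 5 the tallest of its group and IgG1 replicate 5 the tallest of the other.

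Ratios between 2 members within a library cancel the scaling of that library. The log2 ratios tested here do so only in part, since 1 FPKM was added to each member first. All 15 ratios between the 6 tested members were compared, and 12 passed (two-sided exact permutation tests over the libraries, Benjamini-Hochberg adjusted over the 15). Those 12 were the ratios with Fos, Jun or Junb in them. Ratios of these genes to Jund, Batf or Mafk restate the differences given above, from the same libraries. The share of passing ratios over pairs of all tested genes was not taken. The ratio of Fos to Jund, taken without the added 1 FPKM, had a mean of 1.15 ± 0.436 for IgM against 0.148 ± 0.136 for IgG1 (SD, n = 5 each). Without IgG1 replicate 5 the IgG1 mean of this ratio was 0.0900. The log2 ratio of Fos to Jund, with the added 1 FPKM, fell by 3.15 with no overlap (exact permutation p = 0.00794, adjusted p = 0.0149). The log2 ratio of Jun to Jund fell by 1.54 (exact permutation p = 0.00794, adjusted p = 0.0149) and that of Junb to Jund by 1.07 (exact permutation p = 0.0159, adjusted p = 0.0265). The 3 lower genes also differed among themselves. The log2 ratio of Fos to Jun fell by 1.61 and that of Fos to Junb by 2.08, each without overlap (exact permutation p = 0.00794, adjusted p = 0.0149 each). The log2 ratio of Jun to Junb fell by 0.47 with overlapping groups (exact permutation p = 0.0317, adjusted p = 0.0433). The ratios among Jund, Batf and Mafk did not pass, with log2 differences from -0.25 to 0.22 (exact permutation, adjusted p = 0.467 to 0.929). Leaving out 1 library at a time, 9 to 12 ratios passed, and 11 passed with a pseudocount of 0.1 or 5 FPKM.

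The promoters of Fos, Jun and Junb are shown because these are the members whose transcripts differed between the groups. The stretches are the 250 bases before the RefSeq start of each gene on GRCm38.p6, read on the gene's own strand, and all 10 members had a RefSeq entry. Capitals mark matches on either strand to TGACG, the core of the cAMP response element bound by CREB and ATF proteins, or to TGACNTCA, which holds the full element and the related site of Jun.

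Fos, chr12:85473640-85473889: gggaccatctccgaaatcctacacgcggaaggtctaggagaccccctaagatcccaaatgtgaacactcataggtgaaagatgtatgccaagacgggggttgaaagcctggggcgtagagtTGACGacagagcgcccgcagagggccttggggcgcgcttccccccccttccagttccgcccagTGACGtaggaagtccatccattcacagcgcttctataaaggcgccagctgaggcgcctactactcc
Jun, chr4:95052223-95052472: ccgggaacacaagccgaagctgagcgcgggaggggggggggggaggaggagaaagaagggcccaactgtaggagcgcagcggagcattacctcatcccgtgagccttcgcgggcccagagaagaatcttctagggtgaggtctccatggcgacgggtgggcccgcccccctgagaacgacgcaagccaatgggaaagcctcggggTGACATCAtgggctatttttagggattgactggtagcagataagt
Junb, chr8:84978749-84978998: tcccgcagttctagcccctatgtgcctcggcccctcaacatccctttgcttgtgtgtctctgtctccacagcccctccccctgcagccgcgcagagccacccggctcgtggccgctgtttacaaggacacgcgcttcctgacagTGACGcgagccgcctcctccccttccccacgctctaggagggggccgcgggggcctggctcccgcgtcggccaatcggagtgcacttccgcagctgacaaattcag

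In Fos the 2 marked sites lie 129 to 125 and 66 to 62 bases before the start, and a TATAAA lies at 33 to 28. In Jun the marked site lies 45 to 38 bases before the start, followed at 33 to 24 by a match to the consensus of MEF2 factors. In Junb the marked site lies 106 to 102 bases before the start. Over 32851 RefSeq windows of the same 250 bases, searched on both strands, 17.8% hold TGACG, 7.49% TGACNTCA, 12.4% TATAAA and 0.508% the MEF2 consensus. TGACG was found for 7 of the 10 members, including Batf and Mafk, which did not pass. TGACG matches also lie inside TGACNTCA where the open base is G. The AP-1 site TGANTCA and the CArG box, the site of SRF, were in none of the 12 member windows and in 6.75% and 1.47% of all windows. Only these 250 bases were searched, so sites farther from the start are not covered. An absence here does not mean that a gene lacks the site. For Jund the RefSeq start lies 1210 bases from the GENCODE start, and for Atf3, which is among the members with TGACG, 34706 bases. Both windows count among the 12, though they lie away from the GENCODE start. The motifs were chosen after these sequences were seen, and a match is a description of letters only.

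The 3′ untranslated ends were searched for ATTTA, the core of AU-rich elements that shorten the life of many immediate early transcripts and are bound by Zfp36. For each of the 3 genes, the first 30-base window with the most ATTTA copies is shown, in GRCm38 coordinates on the gene's strand, with ATTTA in capitals.

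Fos, chr12:85477090-85477119: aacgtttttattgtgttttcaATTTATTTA
Jun, chr4:95049210-95049239: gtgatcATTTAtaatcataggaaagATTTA
Junb, chr8:84977139-84977168: catattgaatataatatatttgtgtATTTA

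Fos held 4 copies in 815 bases, Jun 4 in 1233 bases and Junb 2 in 485 bases. Of the tested members that did not pass, Mafk held 3 copies in 1812 bases, Jund 1 in 533 bases and Batf 0 in 335 bases. Of the low members, Fosl2 held 8, Maff 4, Atf3 3 and Fosb 1, so 9 of 10 members held at least 1 copy. Over 8915 tested protein-coding genes, 69.2% held at least 1 copy, with a median of 1 copy and a median length of 1086 bases. The longer TTATTTATT was in 7.67% of those genes and in 3 members, Fos, Fosl2 and Maff.

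The counts for the gene lists around the members stand beside 20.2% of all tested genes lower and 18.1% higher in IgG1 cells. Of 22 listed basic leucine zipper and IRF partners, 11 were tested, and 5 were lower and 0 higher in IgG1 cells, with a median log2 difference of -0.25. Leaving out IgM replicate 1, IgM replicate 2, IgG1 replicate 3 or IgG1 replicate 4, each alone, brought that count to 3 of 11, near the share over all genes. Irf8, which with IRF4 anchors BATF-JUN dimers to composite sites, had means of 33.4 ± 3.07 (IgM) and 10.3 ± 1.20 FPKM (IgG1; SD over 5 libraries each; log2 difference -1.61, limma adjusted p = 1.08e-08). Irf4 itself was at 65.5 ± 4.37 against 55.7 ± 7.61 FPKM (log2 difference -0.24, limma adjusted p = 0.0496). Atf2, a JUN partner at cAMP response elements, was at 24.4 ± 3.07 against 14.0 ± 3.23 FPKM (log2 difference -0.78, limma adjusted p = 3.79e-04). Ddit3, the stress factor CHOP, was at 13.6 against 6.83 FPKM and Cebpg at 14.5 against 10.4 FPKM. Nfe2l2, which encodes NRF2, did not pass (log2 difference -0.16, limma adjusted p = 0.443). Fosl1, the remaining FOS gene, averaged 0.00928 FPKM in IgM libraries and was listed at 0 in all IgG1 libraries.

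Of 26 listed kinases and factors upstream of FOS and JUN genes, 25 were tested, with 3 higher and 6 lower in IgG1 cells and a median log2 difference of -0.05, beside -0.05 over all tested genes. The lower share is near that of all genes, and nothing is read from the list as a whole. Mef2c, a factor that binds the Jun promoter in other cells, fell from 164 ± 10.7 FPKM in IgM to 82.1 ± 9.10 FPKM in IgG1 (SD over 5 libraries each; log2 difference -0.99, limma adjusted p = 2.32e-08). Crem, of the CREB family, was at 29.0 against 16.9 FPKM. Gsk3b and Fbxw7, a kinase and a ubiquitin ligase subunit that mark c-Jun for degradation, were at 8.48 against 3.74 and 21.7 against 12.3 FPKM. The ERK pathway kinase Map2k2 was higher in IgG1 cells, at 74.2 against 97.4 FPKM (log2 difference 0.39, limma adjusted p = 6.44e-04). The p38 kinase gene Mapk14 did not pass (limma adjusted p = 0.346), nor did Srf, the factor of the CArG box, at 1.51 against 1.46 FPKM (limma adjusted p = 0.895).

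Genes often named as AP-1 targets were mostly too low to test. Only 6 of 20 listed targets reached 1 FPKM, and 3 were lower and 1 higher in IgG1 cells, with a median log2 difference of -0.57. Prdm1 and the phosphatase Dusp1, an immediate early gene itself, were lower, with log2 differences of -0.86 and -1.33 (limma adjusted p = 6.37e-07 and 8.13e-05). Bcl2l11, the pro-apoptotic BIM gene, was also lower, at 160.2 against 29.4 FPKM. Cd44, an adhesion receptor, was higher, with means of 58.4 ± 5.19 (IgM) and 78.8 ± 3.04 FPKM (IgG1; SD over 5 libraries each; log2 difference 0.43, limma adjusted p = 2.16e-04). Targets shared by NRF2 and small MAF proteins went up or did not pass. Of 12 tested, 6 were higher and 0 lower, with a median of 0.28, and 3 were higher once length and GC trends were removed. The pentose phosphate enzymes Tkt and Taldo1 were at 33.4 against 61.9 and 188 against 245 FPKM, and Gclm, of glutathione synthesis, at 21.9 against 32.8 FPKM.

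Other immediate early genes moved with Fos, Jun and Junb, though not all of them. Of 17 tested, 11 were lower and 2, Myc and Gadd45b, higher in IgG1 cells, with a median log2 difference of -0.999. By p-value the first was Zfp36, whose protein binds AU-rich elements (log2 difference -1.61, limma adjusted p = 5.29e-10). Egr2, a zinc finger factor, averaged 7.56 FPKM in IgM cells and was listed at 0 in every IgG1 library. The ERK phosphatase Dusp5 and the NF-kB inhibitor Nfkbia followed, at 14.7 against 4.36 and 64.1 against 32.2 FPKM. Their sum over the 24 listed genes was 533 to 682 FPKM in IgM and 335 to 401 FPKM in IgG1 libraries, highest in replicate 5 of each group. Heat shock genes, which stress during cell handling can raise, had the opposite balance by count, with 6 of 9 tested genes higher and 1 lower and a median of 0.48. The higher ones were Hspa8, Hsp90aa1, Hsp90ab1, Hsph1, Hspe1 and Hspd1, and the lower one Dnaja1. Hspa1b, at 2.72 against 0.953 FPKM, and Dnajb1 did not pass (limma adjusted p = 0.123 and 0.872). Hspa1a, at 1.37 against 0.512 FPKM, and Hspb1, at 0.460 against 0.116 FPKM, were too low to test, so the listed genes did not move as 1 set. The 11 listed heat shock genes summed to 738 to 836 FPKM in IgM and 1005 to 1236 FPKM in IgG1 libraries. The part of handling in the AP-1 differences was not tested.

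**Figure D4:**
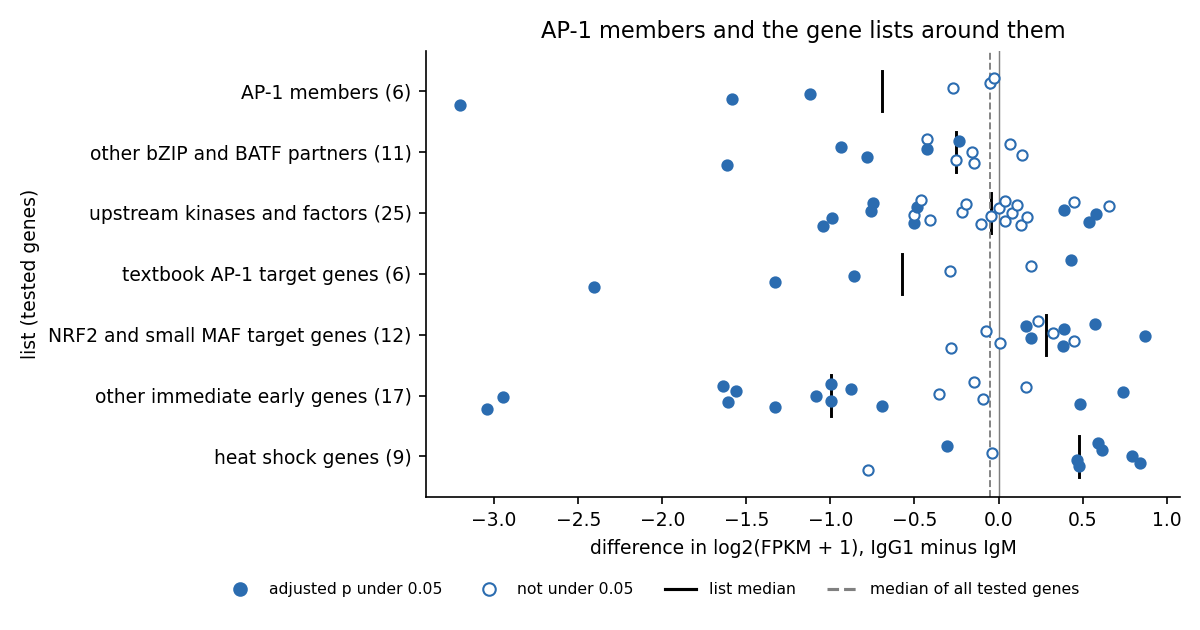
Difference in log2 of FPKM plus 1, IgG1 minus IgM, for each tested gene of the AP-1 family and of the lists around it, with the number of tested genes in brackets. Filled points have an adjusted p under 0.05, short lines are list medians and the dashed line is the median of all tested genes; the list of other immediate early genes lies mostly to the left, and NRF2 and heat shock genes mostly to the right.

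Libraries of one group also differed among themselves. Of the 8 members above 0 in every library, 5 (Fos, Fosb, Jun, Junb and Jund) were highest in replicate 5 of the IgM group, and 6, the same genes and Mafk, in replicate 5 of the IgG1 group. The share of all tested genes that were highest in these libraries was not counted, so nothing particular to the members is read from this. With both of these libraries left out, an alternative chosen after the data were seen, Fos, Jun and Junb remained lower (log2 differences -3.41, -1.62 and -1.20, limma adjusted p of at most 9.69e-04). The same replicate number does not tie an IgM library to an IgG1 library over the transcriptome, as given with the processing. The replicate number was also entered as a block in the fit. The SE of Fos, Jun and Junb were then 0.38, 0.15 and 0.14, against 0.61, 0.31 and 0.30 without it (limma adjusted p with the block = 0.00303, 1.56e-06 and 2.49e-05). Replicate 5 was the highest library for these genes in both groups. How many of all tested genes had a smaller SE with the block was not counted. For Jund, Batf and Mafk the SE were 0.08, 0.26 and 0.22 with the block, against 0.08, 0.25 and 0.20. The labels do not say whether the numbers pair samples.

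Genes whose pattern over the 10 libraries was closest to a member were found by the root mean square difference between centred log2 profiles. A value of 0 means identical centred values. The profiles were not scaled, so genes that rise and fall together by different amounts lie apart. Closest to Fos was Egr1, another immediate early factor, at 0.407, followed by Ccdc17 at 0.717, Hdac9 at 0.787, Pnisr at 0.798 and Pls1 at 0.850. Closest to Jun was Junb, at 0.339, then Dusp1 at 0.362, Ddx3y at 0.363, Eif4a2 at 0.387 and Cep57 at 0.392. Closest to Junb were Rab3a at 0.285, Nfkbia at 0.299, Dusp6 at 0.305, Smarca2 at 0.307 and Dalrd3 at 0.311. Fos and Jun were 0.940 apart, farther than Jun and Jund at 0.876. The genes nearest to Batf, led by Gtf2h1 at 0.235 and Rab10os at 0.240, did not pass between the groups either. All 10 libraries enter these distances, so the group difference weighs in each of them.

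**Figure D5:**
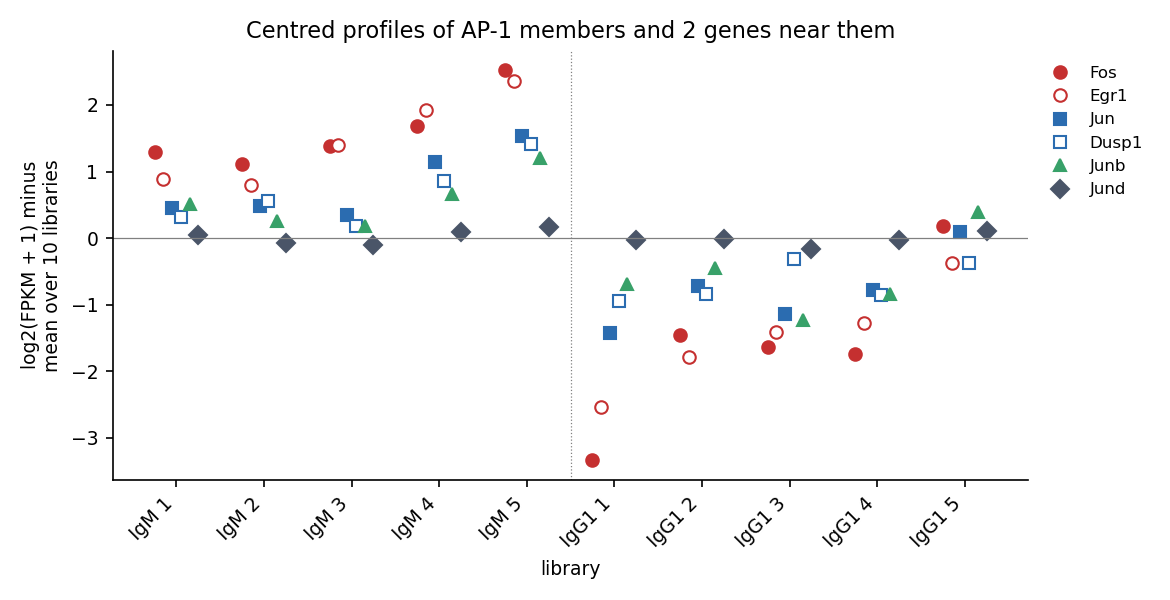
Values of log2 of FPKM plus 1 in each library, minus the gene's mean over the 10 libraries, for Fos, Jun, Junb, Jund and for Egr1 and Dusp1. Egr1 lies near Fos in most libraries, and Dusp1 near Jun in IgM libraries but not in IgG1 replicate 3, with the largest Fos values in IgM replicate 5 and the lowest in IgG1 replicate 1, while Jund stays near 0 throughout.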

How the data were processed

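RNA came from a miRNeasy Micro extraction and libraries from the SMART-Seq mRNA HT LP chemistry, per the labels' protocols. The submitters' processing notes name build GRCm38, Cuffdiff, Cufflinks 2.2.1 and HISAT2 2.1.0, without their roles, and the annotation release is not given in the sources used here. The deposited values are FPKM, per the file headers, in 1 file per library, with no scaling across libraries stated.

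All 47719 identifiers were joined, and 47305 matched GENCODE M21. For depth, the commonest low value of genes with 1 transcript was taken as 1 fragment, with fragments of 200 bases assumed. Fragment numbers per gene use the longest transcript and are approximate, and floors of 3 fragments cover counting error only. No 2 libraries held identical values.

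The 9900 genes averaging 1 FPKM or more entered the test. It used log2 values after a pseudocount of 1 FPKM, which understates changes of low genes, and limma 3.58.1 in R 4.3.3 (trend and robust, group as the only term, two-sided, Benjamini-Hochberg, threshold 0.05). Members below the filter and ratios of members had two-sided exact permutation tests, the ratios on log2 values with the same pseudocount. The fit was first tested on simulated data with known answers.

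The members and gene lists were chosen with earlier results of these data known. All 10 members are named, and of each list up to 6 genes that passed with the smallest p, or the 2 highest where none passed. For Fos, Jun, Junb and Batf the 5 nearest genes averaging 5 FPKM or more were taken, without immunoglobulin genes and unnamed models. Some genes that this rule names are not reported here. Other named genes were chosen after their values were seen. Same-numbered libraries of the groups deviated together with correlations of -0.0357 to 0.0966 over tested genes, so numbers were not taken as pairs. Alternatives covered pseudocount, filter, scaling, eBayes settings, array weights, the replicate block, length and GC trends (natural splines, 4 degrees of freedom each) and left-out libraries. Left-out values of levels, ratios of means and low members were added after seeing the data. Python 3.11.15, numpy 2.4.6, pandas 2.3.3 and matplotlib 3.10.9 were used.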

Additional observations from a re-analysis of the deposited data

Results flagged for a closer look

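A gap between the extreme library and the next one above the critical value of Dixon's test for 5 samples picked out 5 values among 20 groups of 5. FPKM without log2 were used, and some groups hold values of 0, so no count from chance is set beside the 5. In IgG1 libraries Atf3 was above 0 in 1 library only, so its gap is 1.0 of the range by construction. In IgM libraries Atf3 was at 0 throughout and could not be picked out. Fos in IgG1 replicate 5 was at 27.0 FPKM, with the gap to the next library at 0.745 of the group's range. Fosb stood apart in replicate 5 of both groups, with 1.77 FPKM for IgM and 0.269 FPKM for IgG1. Fosl2 at 0.249 FPKM and Atf3 at 0.141 FPKM stood apart in IgG1 replicate 3, where the other IgG1 libraries were at or near 0.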

How the results depend on the processing

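The difference of Batf ranged from -0.49 to -0.09 and did not pass. The differences of Fos, Jun and Junb kept their direction and passed under each of the 23 alternatives run. They ranged from -3.75 to -2.61 for Fos, from -1.89 to -1.23 for Jun and from -1.42 to -0.92 for Junb, with adjusted p up to 0.0101, 0.00977 and 0.0401. Jund passed once length and GC trends were removed (-0.36), and the cause was not tested. Mafk, which did not pass, changed sign under quantile normalization (0.20) and without IgM replicate 2 or 3 or IgG1 replicate 2 or 4, with -0.11 to 0.079 over single libraries left out. Without IgG1 replicate 3, an alternative added after seeing the data, the difference in FPKM of Fosl2 turned to -0.0234 and that of Atf3 to 0, where single libraries left out gave -0.0234 to 0.0390 and 0 to 0.0352. The replicate block gave no other call for any member, though it narrowed the SE of Fos, Jun and Junb. It leaves 0 of 15 ratios because 5 pairs cannot reach the threshold. Leaving out single libraries gave 3 to 5 lower partners, and no filter gave 3. It gave 1 to 2 higher AP-1 targets and 1 to 2 lower heat shock genes. With length and GC trends removed, 3 NRF2 targets and 1 other immediate early gene were higher and 0 heat shock genes lower, and the replicate block gave 2 lower heat shock genes. FPKM without counts limits the precision of members below 1 FPKM, where a few fragments make up a value.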

Other observations

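Members of the wider zipper family outside the AP-1 genes were mostly silent or low. Batf2, Batf3 and Nfe2l3 were listed at 0 in all 10 libraries. Bach2, a repressor that holds back plasma cell formation and pairs with small MAF proteins, averaged 0.829 FPKM in IgM and 0.0140 FPKM in IgG1 libraries, under the level tested. Jdp2, a repressor that pairs with JUN proteins, averaged 0.711 and 1.13 FPKM. Atf4, the factor of the integrated stress response, was at 57.0 against 51.6 FPKM and did not pass (limma adjusted p = 0.186), whereas Ddit3, which it can induce, was lower in IgG1 cells (log2 difference -0.94, limma adjusted p = 0.00324).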
